A study of Homo sapiens with 5 samples.

Results

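The simple epithelial keratins described here are KRT7, KRT8, KRT18 and KRT19, 4 of the 33538 genes counted. They were chosen by function, as the keratins of glandular epithelium, with earlier results of these data known. They were followed in 5 samples of MDA-MB-468, an established human triple-negative breast cancer line, in which the transcription factor gene FOSL1 was raised in 2 systems. Its product FRA-1 is a partner of JUN proteins in AP-1. The HA system had a FOSL1 sample (HA FOSL1) and its control (HA control). The VPR system had FOSL1 samples with guide RNA gRNA2 or gRNA3 and 1 control (VPR control), which both guide comparisons share. Each sample carried its own hashtag antibody, and all were pooled, captured and sequenced as 1 single-cell library of 3' transcript tags. The labels do not spell out HA or VPR, nor say whether any sample is a single clone. They speak of 5-fluorouracil treatment for the series in general and not for these samples, and they mention a pool of 6 samples where 5 are named.

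Keratins are the intermediate filament proteins of epithelial cells. A filament is built from obligate pairs of a type II chain, here KRT7 or KRT8, and a type I chain, here KRT18 or KRT19, and an unpaired chain is usually degraded. KRT8 and KRT18 are the founding pair of simple epithelium, while KRT7 and KRT19 are added in ducts and many glands, breast among them, where these chains mark the luminal cells.

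After filtering, 14642 cells were kept, between 1826 and 4299 a sample, with 42058533 to 85556699 UMIs (counted transcript tags) a sample. HA FOSL1 cells were the deepest, at a median depth of 20768 UMIs, and HA control cells had 15401.5, and the VPR samples lay between 15810 and 18121. The targeted gene FOSL1 stood at 63.5 CPM (counts per 1e+06 gene UMIs) in HA FOSL1 and 8.96 CPM in the HA control. It stood at 100.5 CPM with gRNA2 and 94.3 CPM with gRNA3, against 8.91 CPM in the VPR control. The other epithelial markers were present, with EPCAM between 342.6 and 382.8 CPM, whereas the summed markers of fibroblasts (4 genes), leukocytes (4) and endothelium (3) ranged over 2.21 to 4.37, 0.759 to 4.47 and 0.424 to 1.81 CPM. The fibroblast gene DCN had no UMI in any sample. Most leukocyte-list UMIs were from CD68, at 4.11 CPM in HA FOSL1 and 0.754 CPM in the HA control, and at 1.39 CPM with gRNA2 and 2.44 CPM with gRNA3 against 0.692 CPM in the VPR control. That gene moved with the FOSL1 samples, and so did CDH5, PTPRC and PECAM1. CDH5 had 1.02 CPM in HA FOSL1 and 0.263 CPM in the HA control. It had 0.479 CPM with either guide against 0.201 CPM in the VPR control. The fibroblast gene COL1A1 was lower in each FOSL1 sample, and the remaining genes of these 3 lists had at most 3 UMIs in a sample. The part of these genes in the keratin values was not tested.

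The genes lie on 2 chromosomes (RefSeq, GRCh38.p14, the release of the build named hg38 in the submitters' notes). KRT7 (ENSG00000135480) lies at chr12:52233243-52255853, KRT8 (ENSG00000170421) at chr12:52897191-52949860 and KRT18 (ENSG00000111057) at chr12:52948855-52952906, while KRT19 (ENSG00000171345) lies at chr17:41523617-41528308. The annotated spans of the paired genes KRT8 and KRT18 overlap by 1006 bases. The span of KRT8 reaches 51664 bases beyond this overlap and that of KRT18 3046 bases, in opposite directions. RefSeq lists 52 pseudogenes of KRT8, 68 of KRT18 and 5 of KRT19, none of which has an entry in the counted gene set, and none of KRT7. How reads that match a copy as well as the gene were counted was not tested, so the levels of KRT8 and KRT18 carry that uncertainty. The antisense gene KRT7-AS has its own entry.

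Of the 4 members, 1 was matched in the RefSeq promoter table. It is shown because, after KRT18, KRT8 had the highest HA ratio of the genes over 1000 CPM. The overlap of its annotated span with that of its partner chain lies outside the window shown. The window holds the 250 bases before a RefSeq start inside the KRT8 span, on the minus strand (GRCh38.p14, chr12:52926470-52926719). A 3' tag does not tell which start a transcript used.
KRT8: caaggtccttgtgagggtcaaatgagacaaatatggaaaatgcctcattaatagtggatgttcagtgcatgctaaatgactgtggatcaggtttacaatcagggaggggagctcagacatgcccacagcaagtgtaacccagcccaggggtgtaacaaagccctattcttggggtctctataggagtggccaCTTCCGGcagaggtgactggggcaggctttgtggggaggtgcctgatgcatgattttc
The capitals mark the only match to either motif searched, CCGGAAG, a core recognised by ETS-family factors, read on the opposite strand 58 bases before the start. The AP-1 motif TGANTCA, searched on both strands, had no match in this window. Of 35116 promoter windows of the same length, 8.52% held CCGGAAG and 6.57% held TGANTCA. A match or its lack describes the letters of this window only.

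All 4 keratins were higher in HA FOSL1 than in the HA control, by 1.49-fold to 2.37-fold, and KRT8 and KRT18 lay farthest apart. With either guide all 4 were higher than in the VPR control as well, but by 1.14-fold to 1.27-fold only. Between the 2 controls, which differ in system and not in FOSL1, KRT8 and KRT18 already differed by 1.18-fold and 1.24-fold. Each group held 1 sample. A ratio between 2 samples therefore has no replicates behind it, and its 95% interval reflects counting alone. Ratios are log2 of CPM + 1. UMIs of 3' tags count transcripts, so levels of different genes are compared without division by length.

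KRT8, the type II chain of the founding pair, had a level of 2047 CPM in HA FOSL1 and 925 CPM in the HA control. In the VPR system its level was 1369 CPM with gRNA2 and 1300.1 CPM with gRNA3, against 1090.2 CPM in the VPR control. HA FOSL1 thus stood far above the other samples, and the controls were the lowest. The log2 ratio was 1.14 (interval 1.13 to 1.16) for HA FOSL1, 0.33 (0.31 to 0.35) for gRNA2 and 0.25 (0.24 to 0.27) for gRNA3. The log2 ratio of the VPR control to the HA control was 0.24 (0.22 to 0.25), the size of the gRNA3 ratio.

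KRT18, its type I partner, had a level of 3323 CPM in HA FOSL1 and 1404 CPM in the HA control. The level was 2225 CPM with gRNA2 and 1985 CPM with gRNA3, against 1745 CPM in the VPR control. The log2 ratio was 1.24 (1.23 to 1.26) for HA FOSL1, 0.35 (0.34 to 0.36) for gRNA2 and 0.19 (0.17 to 0.20) for gRNA3. The VPR control exceeded the HA control by a log2 ratio of 0.31 (0.30 to 0.33), more than gRNA3 exceeded the VPR control. Between the guides, KRT18 differed most of the 4 members, with a log2 ratio of gRNA3 to gRNA2 of -0.16 (-0.18 to -0.15). KRT18 ranked 28th of all genes by UMIs in HA FOSL1 and 105th in the HA control, and it was the most abundant member in the HA FOSL1 sample, whereas KRT19 led in the other 4.

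KRT7, the type II chain of ducts, had a level of 2097 CPM in HA FOSL1 and 1274 CPM in the HA control. Its level was 1557 CPM with gRNA2 and 1559 CPM with gRNA3, against 1335 CPM in the VPR control. The log2 ratio was 0.72 (0.70 to 0.73) for HA FOSL1, 0.22 (0.21 to 0.24) for gRNA2 and 0.22 (0.21 to 0.24) for gRNA3. For this member the controls stood close together, at a log2 ratio of 0.07 (0.05 to 0.08), so both guide ratios exceeded the difference between controls.

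KRT19, a type I chain that lacks most of the usual tail domain, had a level of 2991 CPM in HA FOSL1 and 2001 CPM in the HA control. Its level was 2466 CPM with gRNA2 and 2502 CPM with gRNA3, against 2169 CPM in the VPR control. The log2 ratio was 0.58 (0.57 to 0.59) for HA FOSL1, 0.19 (0.17 to 0.20) for gRNA2 and 0.21 (0.20 to 0.22) for gRNA3, beside 0.12 (0.10 to 0.13) between the controls. In the HA arm KRT19 differed least of the 4, and with gRNA3 it stood level with the rest.

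**Figure D1:**
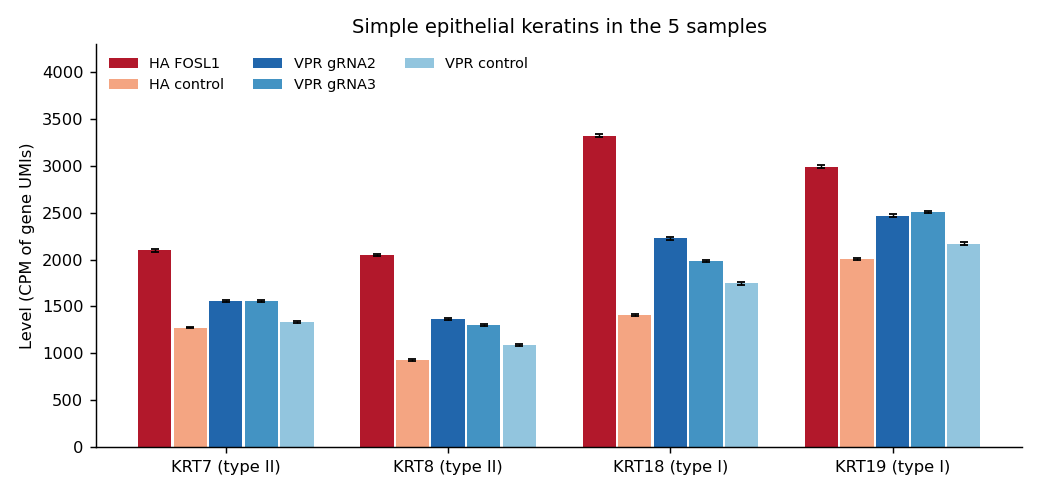
Level of each keratin (vertical axis, CPM of gene UMIs, from 0) in the 5 samples, each bar 1 sample, with exact Poisson 95% intervals for counting error. HA FOSL1 is the highest bar for every member, from 2047 CPM for KRT8 to 3323 CPM for KRT18, and the HA control the lowest, from 925 to 2001 CPM.

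Summed over the 4 members, the level was 10458 CPM in HA FOSL1 (1.05% of gene UMIs) and 5604 CPM in the HA control (0.560%). With gRNA2 it was 7617 CPM (0.762%) and with gRNA3 7346 CPM (0.735%), against 6338 CPM in the VPR control (0.634%). The summed log2 ratio was 0.90 (0.89 to 0.91) for HA FOSL1, 0.27 (0.26 to 0.27) for gRNA2 and 0.21 (0.21 to 0.22) for gRNA3, beside 0.18 (0.17 to 0.19) between controls. Set against the control of the other system instead, a comparison added after the data were seen, the summed log2 ratio was 0.72 for HA FOSL1, 0.44 for gRNA2 and 0.39 for gRNA3. The guide values thus moved by over 1.5 times with the choice of control.

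In the HA arm 2 of the 4 members, KRT8 and KRT18, were at least 2-fold higher, where 2.16% of the 5748 genes averaging 20 CPM or more were. At 1.5-fold the count was 3 of 4, against 5.97% of genes, and KRT19 lay just under that line at 1.49-fold. At 1.5-fold 0 of 4 members counted as higher with gRNA2 (0.921% of 5752 genes) or gRNA3 (0.958% of 5743 genes), and 0 of 4 between the controls (0.0873% of 5726 genes). The median log2 ratio of the members was 0.93 for HA FOSL1, 0.28 for gRNA2 and 0.22 for gRNA3, where the medians over all such genes were 0.0042, 0.0089 and 0.0019. Among the 139 genes over 1000 CPM, KRT18 and KRT8 had the highest log2 ratios of the HA arm, and KRT7 and KRT19 were 7th and 9th. With gRNA2 the members took places 6 to 10 among 139 such genes, and with gRNA3 places 6 to 9. Between the controls KRT18 was 3rd, KRT8 5th, KRT19 9th and KRT7 23rd of 139.

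**Figure D2:**
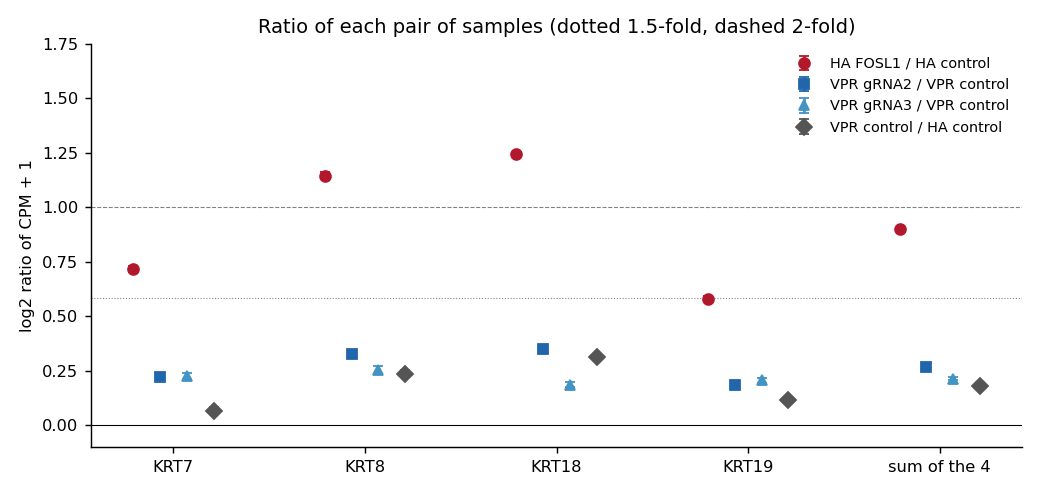
Log2 ratio of CPM + 1 (vertical axis) for each member and their sum, for the HA arm, both guide arms and the VPR control against the HA control, with counting-error intervals mostly smaller than the symbols; lines mark 1.5-fold and 2-fold. HA-arm points lie between 0.58 and 1.24, guide points between 0.19 and 0.35, and the points between controls reach 0.31 for KRT18.

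Taken as 3 repeats of 1 FOSL1 effect in an edgeR quasi-likelihood model with the system as covariate, the samples gave 0 of 4 members past a Benjamini-Hochberg adjusted p of 0.05. That model called 0.9% of 15439 genes higher. KRT7 was higher by 0.46 (log2, SE 0.12, edgeR adjusted p = 0.101) and KRT19 by 0.38 (SE 0.095, adjusted p = 0.0968). KRT8 was higher by 0.67 (SE 0.19, edgeR adjusted p = 0.120) and KRT18 by 0.70 (SE 0.22, adjusted p = 0.138). The pair with the larger fitted differences thus had the larger spread among arms and the larger p. All 4 had an unadjusted p under 0.05, as had 13.4% of genes in the higher direction. DESeq2 called KRT7 and KRT19 (adjusted p = 0.00416 and 0.00676), while it called neither KRT8 nor KRT18, and it called 4.86% of 14931 genes higher. FOSL1 itself rose by 3.19 (SE 0.16, edgeR adjusted p = 0.0110, higher in 3 of 3 FOSL1 samples).

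The estimates and calls of this model turned on single samples. Without HA FOSL1, the estimates of the 4 members were log2 0.21 to 0.31, the values of the guides alone. Without the HA control they were again 0.21 to 0.31. Without the VPR control they were 0.61 to 1.28 and rest on the HA arm. Without gRNA2 they were 0.43 to 0.75, and without gRNA3 0.41 to 0.82. Whether a member, or FOSL1 itself, passed also turned on the sample left out. With so few samples only the estimates of these fits are given here. With no filter on low counts all 4 members passed (edgeR adjusted p 0.00598 to 0.0127). That fit called 1984 genes in either direction, against 248 with the filter.

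The FOSL1 difference was larger in HA than in VPR for all 4 members. In an edgeR model of the interaction of system and FOSL1, the HA difference exceeded the VPR difference by 1.00 for KRT18 (log2, SE 0.082, edgeR adjusted p = 2.32e-05) and by 0.88 for KRT8 (SE 0.064, adjusted p = 1.03e-05). It did so by 0.52 for KRT7 (SE 0.060, edgeR adjusted p = 0.000206) and by 0.41 for KRT19 (SE 0.061, adjusted p = 0.00115). The interaction model called 8.37% of 16071 genes in this direction, and DESeq2 called 2.81% of 12640, all 4 members included. For FOSL1 the difference was -0.60 (SE 0.11, edgeR adjusted p = 0.00418), but this call was lost with DESeq2 (adjusted p = 0.0568). In edgeR it was lost with cells thinned (adjusted p = 0.0698) and without the deepest cells (-0.34, adjusted p = 0.0743). The sample with the highest keratins had the lowest FOSL1 tag level of the 3 FOSL1 samples. How fully 3' tags count the RNA of a construct was not tested. The interaction has 1 residual degree of freedom, from the 2 guides, so its p says nothing of how much an HA pair would vary.

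The balance of type I and type II chains was nearly the same in all samples although their sum was not. Type I chains (KRT18 and KRT19) made up 60.4% of the 4 members' UMIs in HA FOSL1 (exact binomial interval 60.2% to 60.5%) and 60.8% in the HA control (60.6% to 60.9%). They made up 61.6% with gRNA2 (61.4% to 61.7%) and 61.1% with gRNA3 (61.0% to 61.2%), against 61.7% in the VPR control (61.6% to 61.9%). The log2 ratio of type I to type II differed by -0.02 in the HA arm, by -0.01 with gRNA2 and by -0.04 with gRNA3, no more than the 0.06 between the controls.

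Within the founding pair, KRT18 made up 61.9% of KRT8 and KRT18 UMIs in HA FOSL1 (61.7% to 62.1%) and 60.3% in the HA control (60.01% to 60.5%). The share was 61.9% with gRNA2 (61.7% to 62.1%) and 60.4% with gRNA3 (60.2% to 60.6%), against 61.5% in the VPR control (61.3% to 61.8%). The log2 ratio of KRT18 to KRT8 was 0.10 higher in the HA arm, 0.02 higher with gRNA2 and 0.07 lower with gRNA3, beside 0.08 higher in the VPR than in the HA control, so the arms did not share a direction.

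The balance within each chain type did differ. KRT7 made up 50.6% of type II UMIs in HA FOSL1 and 57.9% in the HA control, and 53.2% with gRNA2 and 54.5% with gRNA3 against 55.0% in the VPR control. KRT19 made up 47.4% of type I UMIs in HA FOSL1 and 58.8% in the HA control. Its share was 52.6% with gRNA2 and 55.8% with gRNA3, against 55.4% in the VPR control. The log2 ratio of KRT19 to KRT18 was 0.66 lower in the HA arm and 0.16 lower with gRNA2, 0.02 higher with gRNA3, and 0.20 lower between the controls (VPR over HA). That of KRT7 to KRT8 was 0.43 lower in the HA arm, 0.11 lower with gRNA2, 0.03 lower with gRNA3, and 0.17 lower between the controls (VPR over HA). The HA arm moved toward KRT8 and KRT18 in both chain types, and the guide values stayed within the difference between the controls. These shares have counting intervals only and no test.

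**Figure D3:**
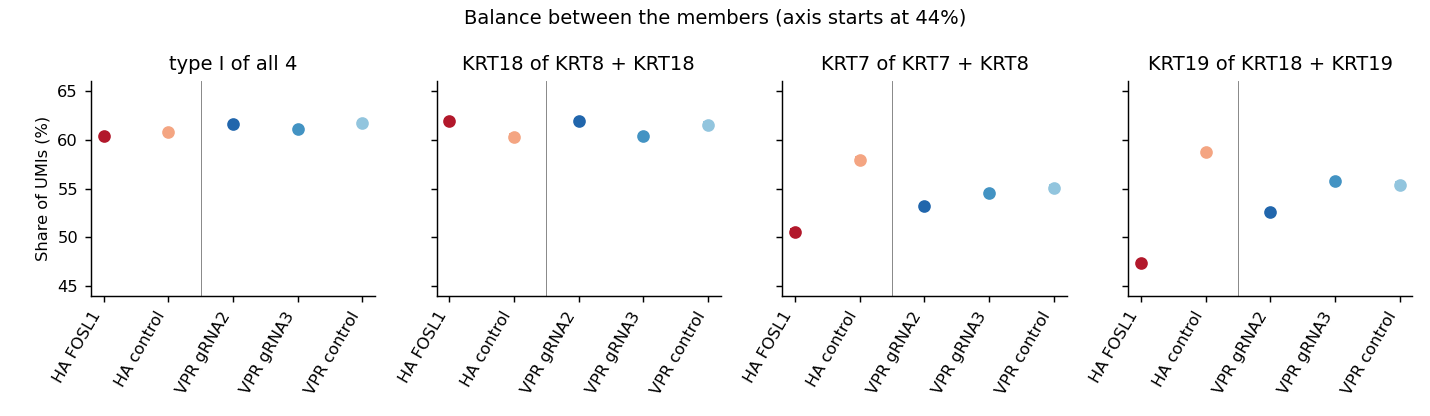
Share of UMIs (vertical axis, percent, starting at 44%) of type I chains among the 4 members, of KRT18 in its pair with KRT8, of KRT7 in type II and of KRT19 in type I, 1 point a sample. Type I shares lie between 60.4% and 61.7% in all 5 samples, while KRT19's share of type I is 47.4% in HA FOSL1 and 52.6% to 58.8% in the others.

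For comparison over cells, every cell was thinned to 5000 UMIs, and 5 to 13 shallower cells a sample were left out. The median KRT18 count per cell was then 15 in HA FOSL1 and 6 in the HA control, and 10 with gRNA2 and 9 with gRNA3 against 8 in the VPR control. KRT8 had a median of 9 in HA FOSL1 and 4 in the HA control, and of 6 with gRNA2 and 6 with gRNA3 against 5 in the VPR control. For KRT7 the median was 10 in HA FOSL1 and 6 in the HA control, and 7 with gRNA2 and 7 with gRNA3 against 6 in the VPR control. The KRT19 median was 14 in HA FOSL1 and 10 in the HA control, and 12 with gRNA2 and 12 with gRNA3 against 11 in the VPR control. Nearly every cell held each keratin, and the ranges of the samples overlapped.

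The whole distribution, not its upper tail alone, lay higher in HA FOSL1. KRT18 was 2.33-fold, 2.50-fold and 2.25-fold higher in HA FOSL1 than in the HA control at the 10th, 50th and 90th percentile of cells, and KRT8 2.0-fold, 2.25-fold and 2.13-fold. Of HA FOSL1 cells 63.1% lay above the 90th percentile of HA control cells for KRT18, as did 8.11% of HA control cells, since counts tie at that value. The share was 55.9% for KRT8 (9.44% in the HA control), 35.1% for KRT7 (7.99%), 29.8% for KRT19 (8.67%) and 69.0% for the sum of the 4 (8.91%). For KRT18 22.3% of gRNA2 cells and 15.4% of gRNA3 cells lay above the 90th percentile of the VPR control, against 9.97% of its own cells. For the sum these shares were 25.3% with gRNA2 and 21.5% with gRNA3, against 9.74% in the VPR control. Of VPR control cells, 17.2% lay above the 90th percentile of the HA control for KRT18.

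Cells without a KRT8 UMI made up 0.275% of HA FOSL1 cells at 5000 UMIs (exact binomial interval 0.0894% to 0.641%) and 2.85% of HA control cells (2.32% to 3.47%). They made up 1.02% of cells with gRNA2 (0.671% to 1.498%) and 1.07% with gRNA3 (0.786% to 1.43%), against 1.58% in the VPR control (1.14% to 2.14%). Unthinned, the share was at most 0.207% in any sample, the HA control. Cells without a detected keratin of the founding pair were thus rare in each sample. Droplets with 10 to 100 UMIs, taken as free RNA, held the 4 keratins at 7609 CPM in sum, near the 7344 CPM of all kept cells. The part of free RNA in the counts of single cells was not tested; with 5% of each sample's UMIs removed as free RNA, the summed log2 ratio was 0.95 for HA FOSL1, 0.28 for gRNA2 and 0.23 for gRNA3.

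**Figure D4:**
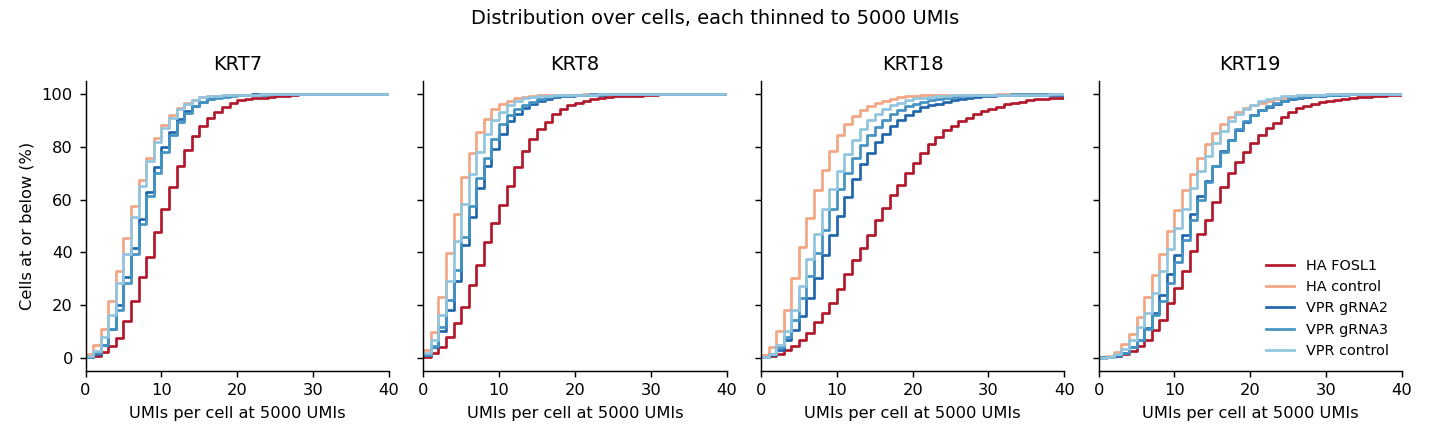
Cumulative share of cells (vertical axis, percent) with at most a given number of UMIs of each keratin (horizontal axis) after thinning to 5000 UMIs a cell, 1 line a sample. The HA FOSL1 line lies right of the others along its length for KRT18 and KRT8, with medians of 15 and 9 against 6 and 4 in the HA control.

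Relative to the mean, the spread over cells of KRT18 and KRT8 differed little between samples. The coefficient of variation of KRT18 over cells, beyond counting, was 0.452 in HA FOSL1 and 0.450 in the HA control, and 0.439 with gRNA2 and 0.435 with gRNA3 against 0.428 in the VPR control. For KRT8 it was 0.407 in HA FOSL1 and 0.426 in the HA control, and 0.399 with gRNA2 and 0.391 with gRNA3 against 0.384 in the VPR control. KRT7 varied less, at 0.321 in HA FOSL1 and 0.368 in the HA control, and 0.304 with gRNA2 and 0.307 with gRNA3 against 0.318 in the VPR control. For KRT19 the value was 0.366 in HA FOSL1 and 0.367 in the HA control. It was lower in the VPR system, at 0.326 with gRNA2, 0.308 with gRNA3 and 0.316 in the VPR control.

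Of the 6 pairs of members, KRT8 and KRT18 varied together most closely from cell to cell. Pearson r over cells between KRT8 and KRT18 (log of thinned UMIs) was 0.587 in HA FOSL1 (1818 cells) and 0.320 in the HA control (3367 cells). It was 0.452 with gRNA2 (2537 cells) and 0.450 with gRNA3 (4289 cells), against 0.382 in the VPR control (2587 cells). KRT18 and KRT19, both type I, had an r of 0.295 in HA FOSL1 and 0.133 in the HA control, and of 0.123 with gRNA2 and 0.0981 with gRNA3 against 0.125 in the VPR control. Pairs of unlike chain type did not exceed pairs of like type throughout: KRT7 with KRT8, both type II, had an r of 0.202 to 0.277 over the samples, and KRT7 with the type I chain KRT19 a lower one in each, at 0.122 to 0.271. Counts are sparse, cells of a sample share 1 library and mean counts differ between samples, so these values are a description, and the part of the mean count in the order of samples was not tested.

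**Figure D5:**
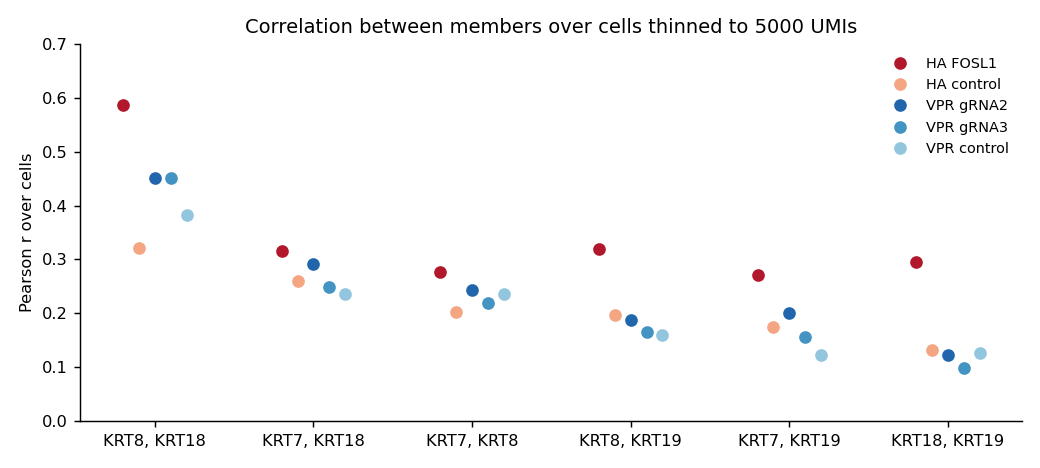
Pearson r over cells (vertical axis) for the 6 pairs of members, 1 point a sample, each cell thinned to 5000 UMIs. KRT8 with KRT18 is the highest pair in each sample, from 0.320 in the HA control to 0.587 in HA FOSL1, and the points of the other pairs lie between 0.0981 and 0.320.

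Within samples, cells with a FOSL1 UMI at 5000 UMIs held somewhat more KRT18 and were also deeper. Each SEM here is over cells within a sample, which are not replicates, so these values are a description. Mean KRT18 was 17.4 (SEM 0.471, 354 cells) in HA FOSL1 cells with a FOSL1 UMI and 15.8 (SEM 0.213, 1464 cells) in those without. With gRNA2 it was 11.9 (SEM 0.208) and 10.4 (SEM 0.137), and with gRNA3 10.0 (SEM 0.147) and 9.37 (SEM 0.0936). In the VPR control it was 11.3 (SEM 0.573, 108 cells) and 8.46 (SEM 0.0924), and in the HA control 8.0 (SEM 0.409, 126 cells) and 6.83 (SEM 0.0708). KRT19 had no common direction. Its mean was 15.9 in HA FOSL1 cells with a FOSL1 UMI and 14.7 in those without, and 12.7 and 12.5 with gRNA2. It was 12.2 in gRNA3 cells with a FOSL1 UMI and 12.9 in those without, 10.9 and 11.1 in the VPR control, and 9.77 and 10.4 in the HA control. Median depth before thinning was 23669 UMIs in HA FOSL1 cells with a FOSL1 UMI and 20401 UMIs in those without, and the part of depth in these values was not tested.

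The members held a nearly constant portion of the keratin pool. Over 55 listed keratin genes, the level was 14200.4 CPM in HA FOSL1 and 7589 CPM in the HA control, and 10289 CPM with gRNA2 and 10067 CPM with gRNA3 against 8443 CPM in the VPR control. The 4 members made up 73.6% of these UMIs in HA FOSL1 and 73.8% in the HA control, and 74.0% with gRNA2 and 73.0% with gRNA3 against 75.1% in the VPR control. Basal and stress keratins made up 13.9% in HA FOSL1 and 12.3% in the HA control, and 14.8% with gRNA2 and 15.6% with gRNA3 against 12.1% in the VPR control. The share of hair keratins was 8.05% in HA FOSL1 and 7.40% in the HA control, and 5.69% with gRNA2 and 5.74% with gRNA3 against 6.86% in the VPR control.

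In the edgeR FOSL1 model 0 of 4 members passed, while DESeq2 called 2 of 4. Of the 7 basal and stress keratins tested 4 rose in the edgeR model, which called 0.9% of 15439 genes higher. These were KRT14, the type I chain of basal cells (log2 1.89, edgeR adjusted p = 0.0142), the stress keratin KRT16 (1.57, adjusted p = 0.0341), KRT15 (0.71, adjusted p = 0.0290) and KRT5, the type II partner of KRT14 (0.62, adjusted p = 0.0290). DESeq2 called the same 4, and 4.86% of 14931 genes higher. Of the 5 measured in all 3 arms, each arm had 4 at least 1.5-fold higher, but not the same 4. Over all genes these shares were 5.97% (HA), 0.921% (gRNA2) and 0.958% (gRNA3). KRT5 fell short in the HA arm (log2 0.50), and KRT17 fell short with gRNA2 (0.26) and gRNA3 (0.29). The median log2 ratios of the 5 were 0.94 for HA FOSL1, 0.64 for gRNA2 and 0.67 for gRNA3. KRT6B averaged 20 CPM in the HA arm only, through 44.03 CPM in HA FOSL1 against 7.66 CPM in the HA control, and is not counted. KRT5 had a level of 344.1 CPM in HA FOSL1 and 242.7 CPM in the HA control, and of 396.4 CPM with gRNA2 and 404.8 CPM with gRNA3 against 253.6 CPM in the VPR control. Its highest levels were thus with the guides. KRT14, KRT15, KRT16 and KRT17 had their highest level in HA FOSL1, as had every member. The edgeR interaction model called the FOSL1 difference larger in HA for 5 of the 7 basal and stress keratins tested, and for 8.37% of all genes. The hair keratins measured had their highest level in HA FOSL1 too. KRT81, a type II hair keratin, had 1063 CPM in HA FOSL1 and 546 CPM in the HA control, and 573 CPM with gRNA2 and 562 CPM with gRNA3 against 569 CPM in the VPR control. KRT34 averaged 20 CPM in the HA arm only, through 72.2 CPM in HA FOSL1 against 9.33 CPM in the HA control. KRT81 was thus the 1 hair keratin measured in all 3 arms, with log2 ratios of 0.96 (HA FOSL1), 0.01 (gRNA2) and -0.02 (gRNA3). Of the hair keratins 0 of 3 tested passed the FOSL1 model by edgeR or DESeq2.

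Of the other keratins of simple or mixed epithelia 0 of 4 tested passed the edgeR FOSL1 model. At 1.5-fold 2 of 3 measured were higher in the HA arm, 1 of 3 with gRNA2 and 0 of 3 with gRNA3. The shares over all genes were 5.97%, 0.921% and 0.958%. KRT4, a type II chain of mucosal epithelium, had log2 ratios of 0.92, 0.69 and 0.35 in those arms, and KRT80 had 0.70, 0.27 and 0.30. DESeq2 called both higher (adjusted p = 0.000108 and 0.0051). Of the keratin linkers and organisers 2 of 12 tested rose in the edgeR FOSL1 model, where 0.9% of all genes did. At 1.5-fold 3 of 8 measured were higher in the HA arm, 0 of 8 with gRNA2 and 1 of 8 with gRNA3. SFN, which encodes 14-3-3 sigma, of a family that binds KRT18, rose by 0.79 (edgeR adjusted p = 0.0474) and the desmosomal plakophilin PKP3 by 0.48 (adjusted p = 0.0467). DST and PLEC, plakins that tie keratin filaments to hemidesmosomes, had log2 ratios of 1.12 and 1.03 in the HA arm and did not pass in edgeR (adjusted p = 0.107 and 0.066). DESeq2 called PLEC (adjusted p = 1.57e-05) beside SFN and PKP3, 3 of 12 tested, where it called 4.86% of all genes higher.

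Of non-keratin intermediate filaments 1 of 5 tested passed the edgeR FOSL1 model. NES, encoding nestin, fell by 1.13 (edgeR adjusted p = 0.0317), where 0.706% of genes were called lower. DESeq2 called NES and the lamin gene LMNB1 lower (adjusted p = 2.88e-05 and 0.024) and LMNA higher (0.00844), where it called 2.63% of genes lower. VIM, encoding the mesenchymal filament vimentin, stood at 31.1 CPM in HA FOSL1 and 9.82 CPM in the HA control, and at 5.37 CPM with gRNA2 and 16.5 CPM with gRNA3 against 9.04 CPM in the VPR control, without a common direction. Of epithelial transcription factors 0 of 14 tested passed the edgeR FOSL1 model, and of the 8 measured in the HA arm 0 were 1.5-fold higher and 1 lower, EHF, whose log2 ratio was -0.92 for HA FOSL1, -0.38 for gRNA2 and -0.49 for gRNA3. DESeq2 called EHF lower (adjusted p = 0.000211) and KLF4 higher (0.00863), the last named here after its values were seen. Of luminal surface genes 0 of 9 tested passed in edgeR, and DESeq2 called 3 of 9 lower, CD24 (adjusted p = 0.00259), CLDN3 (0.00824) and PROM1 (0.024). Of these genes 0 of 9 were higher at 1.5-fold in any arm, with 2, 1 and 1 lower, where 2.19%, 0.591% and 0.836% of genes were lower in the HA, gRNA2 and gRNA3 arm. PROM1, a stem and luminal progenitor surface protein, had log2 ratios of -1.96, -0.75 and -0.83 and averaged 20 CPM through the controls, and the tight junction gene CLDN3 had -0.76 in the HA arm. The list medians in the HA arm were -0.20 for luminal surface genes and -0.11 for epithelial factors, beside 0.93 for the 4 keratins and 0.0042 for all genes measured.

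The genes whose pattern over the 5 samples was most like each member were taken from those averaging 20 CPM or more, by the root mean square difference of centred log2(CPM + 1). KRT8 and KRT18 were among the nearest of each other (0.043), and shared GM2A, DST and FADS3, with OLR1 nearest to KRT18 (0.040) and CCNYL1 also near KRT8. KRT7 was followed most closely by HERC4 (0.014), SLC25A43, ARHGAP21, CRB3 and SQOR, and KRT19 by PLOD2 (0.0092), SPRYD7, SMIM13, CARHSP1 and UBL3. Neither had another member among its nearest 5, and KRT19 was the 77th gene in likeness to KRT7.

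Over cells, likeness was the mean over the 5 samples of Pearson r, for the 1538 genes averaging 100 CPM or more. KRT8 and KRT18 led each other's order (mean r 0.438), and CAV1, the caveolar coat protein, was among the nearest 5 of both KRT18 (0.296) and KRT8 (0.220). KRT7 was nearest to the hair keratin KRT81 (0.300), then KRT18, the actin gene ACTB, KRT8 and TMSB10. KRT19 was nearest to S100A6 (0.251), then FTH1, KRT8, S100A11 and KRT7. Every member thus had at least 1 other member among its nearest 5 genes over cells, where KRT7 and KRT19 had none over samples.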

How the data were processed

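Per gene and barcode, the deposited matrix gives raw UMI counts that the authors made with Cell Ranger 4 per the file headers; per the submitters' processing notes the build was hg38. A deposited table assigns each of 21228 called cells to a hashtag or to a class of multiplets, blanks or unassigned cells, and states the authors' probability of this assignment as a fraction. The tool that made it is not named in the labels or the file headers. Hashtags with the prefix GOF were taken as the HA samples by elimination. Multiplets (5181), unassigned cells (402) and blanks (274) were left out. Doublets within a sample were not called. Cells with at least 1500 genes and at most 20% mitochondrial UMIs were kept, 14642 of them. All cells come from 1 library, so no barcode is shared between libraries.

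UMIs were summed per sample, and CPM is relative to all gene UMIs. Ratios have exact conditional binomial, levels exact Poisson and shares exact binomial 95% intervals, all for counting error only. Cells were thinned to 5000 UMIs (seed 7) where compared. Summed counts were fitted over all genes with edgeR 4.0.16 (TMM, filterByExpr, quasi-likelihood, Benjamini-Hochberg adjustment) with system and FOSL1 state (2 residual degrees of freedom) or their interaction (1), and with DESeq2 1.42.0 as an alternative, in R 4.3.3. The steps were tested on simulated data. Nothing in the labels says that the samples came from separate cultures, so p-values measure the spread between these samples only.

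The members and gene lists were chosen with earlier results of these data known. Named were FOSL1, the members, genes of each list that passed edgeR or up to 5 with the largest ratio at a mean of at least 20 CPM, and the 5 genes most like each member. Marker genes of epithelium, fibroblasts, leukocytes and endothelium served to check the cells.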

Additional observations from a re-analysis of the deposited data

Results flagged for a closer look

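The FOSL1 difference of each member was larger in HA than in VPR by the interaction test. The HA minus VPR difference was 1.00 on the log2 scale for KRT18, 0.88 for KRT8, 0.52 for KRT7 and 0.41 for KRT19 (edgeR adjusted p = 2.32e-05, 1.03e-05, 0.000206 and 0.00115). Each HA value was higher than both guide values, and all 4 passed under every alternative that was fitted.

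Droplets and cells that entered no comparison held the 4 keratins above the level of both controls (5604 CPM in HA, 6338 CPM in VPR). The summed level was 7609 CPM in droplets with 10 to 100 UMIs and 7928 CPM in multiplets. It was 7633 CPM in unassigned cells and 6783 CPM in blanks, beside 7344 CPM in all kept cells. Multiplets, unassigned cells and blanks hold cells of several samples, FOSL1 samples among them, so their distance from the controls was not tested. Assigned cells that failed the filter were lower, at 3854 CPM.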

How the results depend on the processing

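All 144 values of the members' log2 ratios under the alternatives lay above 0, as in the values reported. The summed log2 ratio of HA FOSL1, gRNA2 and gRNA3 was 0.89, 0.24 and 0.18 with at most 10% mitochondrial UMIs, 0.95, 0.28 and 0.23 with 5% free RNA removed, and 0.86, 0.25 and 0.20 with cells thinned. It was 0.93, 0.28 and 0.26 with TMM library sizes and 0.87, 0.25 and 0.20 as a mean over cells. It was 0.91 in the HA arm with the members out of the total, and 0.20 with gRNA3 without the deepest cells. Chosen after seeing the data were 3 more alternatives. Cells with no MKI67 UMI gave 0.83, 0.25 and 0.19, cells with 15000 to 20000 UMIs gave 0.86 in the HA arm and 0.30 with gRNA2, and the other control gave 0.72, 0.44 and 0.39.

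The log2 change of KRT18 to KRT8 moved past its counting interval in 8 of 27 values under the alternatives, 5 of 9 in the HA arm, 2 of 9 with gRNA2 and 1 of 9 with gRNA3. In the HA arm it was 0.047 with at most 10% mitochondrial UMIs, 0.13 thinned, 0.051 at 15000 to 20000 UMIs and 0.14 with no MKI67 UMI. With gRNA2 it was 0.061 at 15000 to 20000 UMIs. Against the other control it was 0.020, 0.10 and 0.0089, which turns the sign for gRNA3.

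The edgeR FOSL1 model called 248 genes, against 1117 by DESeq2, 1984 with no filter on low counts, 504 with cells thinned and 375 without the deepest cells. Leaving out 1 sample in turn gave 0 to 5937 calls; a lone sample is then assumed to vary like the other groups. The interaction model called 1958 genes, against 450 by DESeq2 and 1268 with cells thinned. Leaving out samples in the interaction model was not run, because no residual degree of freedom is left or the term cannot be estimated. No paired analysis was possible because each group has 1 sample. The cause of these shifts was not tested. With 48816 to 214062 UMIs of a member in a sample, the precision is set by the 1 sample a group rather than by depth.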

Other observations

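Cells with at least 2 MKI67 UMIs, a proliferation marker, held fewer UMIs of every member than cells with none in all 5 samples. This split was chosen after its values were seen, and cells with MKI67 UMIs were deeper before thinning. Mean KRT19 at 5000 UMIs was 13.9 (SEM 0.338) in MKI67-high and 15.6 (SEM 0.210) in MKI67-negative HA FOSL1 cells, and 8.21 (SEM 0.178) and 11.3 (SEM 0.112) in the HA control. It was 10.4 and 13.5 with gRNA2, 10.6 and 13.6 with gRNA3, and 9.22 and 11.9 in the VPR control. KRT18 differed less, at 15.3 and 16.8 in HA FOSL1, 6.34 and 7.12 in the HA control, and 8.02 and 8.81 in the VPR control.

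The lowest mean r over cells with KRT19 and with KRT7 was that of the mitotic gene CENPF (-0.240 and -0.166), also low with KRT8 (-0.159). With KRT18 and KRT8 it was that of AZGP1, encoding zinc-alpha-2-glycoprotein (-0.243 and -0.175), negative in 5 of 5 samples for both. These genes were picked after their values were seen.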
